A study of Homo sapiens with 4 samples.

Results

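HN30/DDP is a cisplatin-resistant derivative of HN30, an established human cell line of head and neck squamous cell carcinoma, and the comparison described here sets the RNA of HN30/DDP (labelled HN30_CR) against that of the parental HN30. It was made over every gene that both arrays measured, with the brightest probe standing for each gene name, which gave 43305 genes of the 43317 gene names on the design. These genes came from 58201 probes on 60901 spots that are not controls. Parental HN30 grew in DMEM with fetal bovine serum and carried no drug in its label. HN30/DDP was made from it by raising the cisplatin dose stepwise, and the labels and methods put it in medium with 20 μM cisplatin, with 48 h named in the label. Stable resistance and the presence of the drug therefore cannot be told apart in this pair. The labels do not say whether HN30/DDP is 1 clone or a mixed population. Total RNA was hybridised in 1 colour to Agilent human expression arrays, 1 array for each of the 2 lines and its resistant derivative, 4 in the series. The other pair, HN4 and HN4/DDP, is of the same cancer type and is cited only where its value stands beside one of HN30/DDP.

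With 1 array a side there was no replicate error, so no test across arrays was possible and no difference below carries a p-value. A level is the log2 of the scanner's background-subtracted signal minus the 75th percentile of that array, so 0 is the signal that 25% of spots exceed. A difference is the HN30/DDP level minus the HN30 level on this log2 scale, and a gene was called higher or lower when the difference passed 2 (4-fold) or, as a looser rule, 1, with the probe well above background on the brighter array by the scanner's flag. A gene called at background on an array was not well above background there. The scanner's own error estimate, carried to the difference, had a median of 0.21 for genes well above background on both arrays, and it covers error within the arrays only. The number of arrays limits the precision.

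Cisplatin forms adducts and crosslinks on DNA, which stall replication forks and activate the ATM and ATR kinases, the tumour suppressor p53 and its arrest and death genes. Cells that survive long exposure are known to differ in drug transport, thiol metabolism, repair and death signalling, and squamous carcinoma cells also carry keratin and secretory programmes that can shift. The lists below follow these roles.

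A total of 2371 genes were higher in HN30/DDP by over 2, which is 5.48% of all genes, and 779 were lower by over 2, which is 1.80%. At the looser threshold 5605 were higher (12.9%) and 3756 lower (8.67%). The split between directions depended on the scaling: 75.3% of the calls past 2 were higher after scaling to the 75th percentile, against 50.2% after scaling to the median (1545 higher and 1532 lower), which moved the median difference of all genes from -0.07 to -0.49. List medians moved with it, by the same amount: under that scaling p53 targets stood at 0.39, collagens at 0.25, immediate early genes at 0.09, WNT genes at -0.13, interferon-stimulated genes at -0.20, the integrated stress response at -0.30 and NRF2 targets at -0.38. The HN30/DDP array had 27625 genes well above background and the HN30 array 23950, so 1335 of the 2371 higher genes were not well above background on HN30, and 213 of the 779 lower genes were not well above background on HN30/DDP. For such genes only a bound on the fold can be given, and where a list count includes them it rests on the measured difference, which can pass 2 when the bound does not.

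The difference also moved with brightness. When genes were split by their mean level on the 2 arrays into 5 bins of equal size, the median difference was -0.31, 0.31, 0.24, 0.06 and -0.37 from the dimmest to the brightest. A lowess curve through all genes was therefore taken off, and the remainder is called the difference relative to the curve. Relative to the curve, 2037 genes were higher and 697 lower by over 2, of which 1937 and 611 were also called without it. The curve stood at a median of -0.38 in the brightest bin and of 0.30 in the second dimmest, so list medians are given on both scales.

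**Figure D1:**
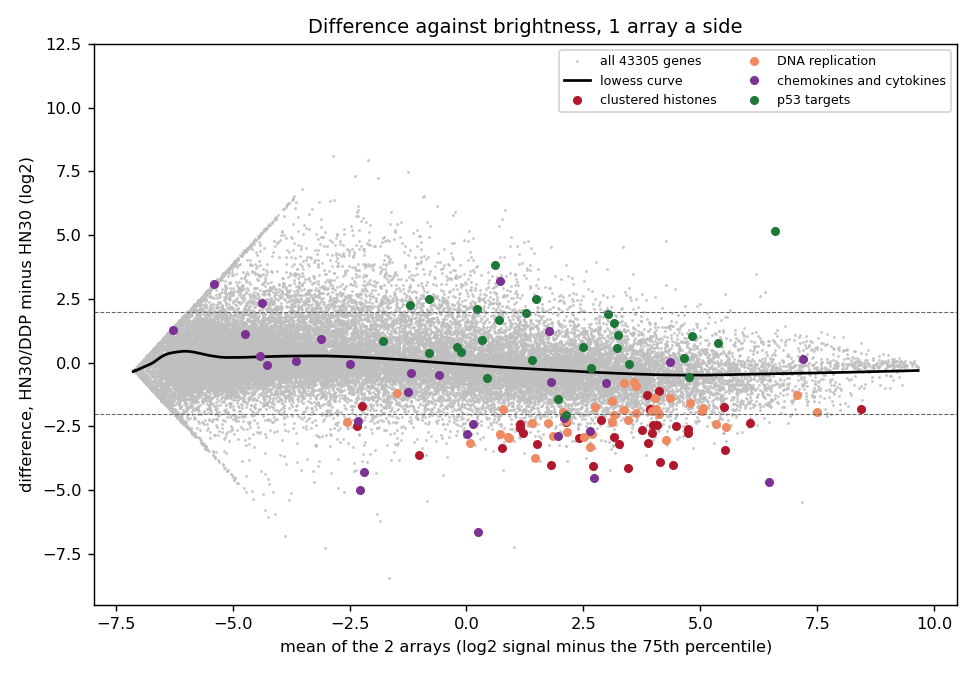
Each grey point is 1 gene, with its mean level on the 2 arrays (log2 signal minus the 75th percentile) on the horizontal axis and its difference (HN30/DDP minus HN30, log2) on the vertical axis. The black line is the lowess curve, the dashed lines stand at 2 and -2, and the coloured points are the members of 4 lists: the 33 histone and 40 replication genes all lie below the curve, while 24 of 28 p53 targets lie above it.

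The epithelial identity of both arrays was checked on squamous markers. KRT5, a basal keratin, read 2.84 on HN30 and 0.91 on HN30/DDP, and KRT14, its partner, read 0.17 and 0.39. TP63, the transcription factor of basal squamous cells, stood at -0.81 and -0.87, DSG3 at -1.34 and -0.80, and KRT17 at 0.54 and 0.73. The adhesion genes CDH1 (3.27 and 4.60) and EPCAM (6.67 and 5.95), SFN (6.93 and 5.97) and PERP (6.49 and 6.45) were bright on both. All of these were well above background on both arrays. KRT6A, the remaining marker of the check, read 2.57 on HN30 but was at background on HN30/DDP. Of 8 fibroblast markers, with a median level of -6.76 on HN30 and -5.97 on HN30/DDP, 5 were at background on both arrays (COL1A2, COL3A1, DCN, LUM and PDGFRA), and COL1A1 read -3.15 and -0.72, PDGFRB -3.73 and -3.10 (its other probe differed by 4.77), and FAP 0.71 and -1.70. Of 6 endothelial markers, with median levels of -5.97 and -3.65, KDR and TEK were at background on both arrays and CLDN5 went from background on HN30 to -2.10. The other 4, with CLDN5, were well above background on at least 1 array, 2 of them on both. By over 1, 3 of the 6 were higher and 0 lower, against 12.9% and 8.67% of all genes. Of the 6 leukocyte markers measured, with median levels of -3.14 and -3.39, PTPRC read -3.10 and -2.94, and CD14, a co-receptor for bacterial lipopolysaccharide, read 1.82 and 5.30, a difference of 3.49. The part of other cells in any result was not tested, and in bulk RNA fewer cells of a kind and less RNA per cell cannot be told apart.

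Among secreted signals the neutrophil-attracting chemokines were far lower in HN30/DDP. Of 29 chemokine and cytokine genes, 11 were lower by over 2 and 3 higher, against 1.80% and 5.48% of all genes, and the list median was -0.50 (-0.48 relative to the curve). CXCL8 (interleukin 8) read 3.57 on HN30 and -3.07 on HN30/DDP, a difference of -6.63 with a scanner SD of 0.22. It was the lowest of all genes with a RefSeq messenger accession that were well above background on both arrays, when ranked relative to the curve (-6.52). CXCL1 read 8.80 and 4.14, a difference of -4.66, and its other probe gave -5.36. CXCL2 read 5.01 and 0.46, with differences of -4.55 and -5.02 by its 2 probes. These 3 genes encode ligands of the receptor CXCR2. CCL2, which attracts monocytes, read 0.24 and -4.78, and CCL20, which attracts CCR6-bearing lymphocytes and dendritic cells, read -0.03 and -4.34.

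Further ligands moved the same way by less. CXCL5 differed by -2.89, CXCL3 by -2.80 and CXCL6 by -2.30. The colony-stimulating factors CSF3 and CSF2 differed by -2.70 and -2.41, and TNF by -2.19, from 3.19 to 0.99. The interleukin 1 genes did not follow: IL1B read 7.13 and 7.28, and IL1A 4.36 and 4.37. IL6 differed by -0.50. On the other side stood IL11, a cytokine of the interleukin 6 family, which read -0.89 and 2.34, a difference of 3.22. IL33 and TSLP, epithelial alarmins that act on type 2 immune cells, were at background on HN30 and read -3.22 and -3.87 on HN30/DDP. In the HN4 pair, CXCL1 and CXCL5 were lower in HN4/DDP (-2.75 and -3.93), as were CXCL8, CCL2 and CCL20 (-1.53, -3.43 and -1.97), while CXCL2 stood at 0.12. No test of the difference between the lines was possible.

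The promoters of the CXC ligands that were lowest are shown because they share a run of letters that NF-kB, the factor that drives inflammatory genes, is known to bind (GGAATTTCC, searched on both strands and chosen after the values were seen). Each sequence is the 250 bases before the RefSeq start of the gene on GRCh38.p14, written 5′ to 3′ on the strand of the gene, with the run in capitals. CXCL8 lies at chr4:73740319-73740568 on the plus strand, CXCL1 at chr4:73869143-73869392 on the plus strand and CXCL2 at chr4:74099196-74099445 on the minus strand.
CXCL8: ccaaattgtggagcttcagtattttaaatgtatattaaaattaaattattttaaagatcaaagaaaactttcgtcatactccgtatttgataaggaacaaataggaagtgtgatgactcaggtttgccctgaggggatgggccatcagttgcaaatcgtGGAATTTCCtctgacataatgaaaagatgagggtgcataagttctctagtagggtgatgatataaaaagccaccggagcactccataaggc
CXCL1: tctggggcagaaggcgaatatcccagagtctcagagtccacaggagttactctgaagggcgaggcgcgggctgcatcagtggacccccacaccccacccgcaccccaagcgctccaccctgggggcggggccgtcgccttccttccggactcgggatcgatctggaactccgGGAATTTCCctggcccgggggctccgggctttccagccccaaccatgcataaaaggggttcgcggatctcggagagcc
CXCL2: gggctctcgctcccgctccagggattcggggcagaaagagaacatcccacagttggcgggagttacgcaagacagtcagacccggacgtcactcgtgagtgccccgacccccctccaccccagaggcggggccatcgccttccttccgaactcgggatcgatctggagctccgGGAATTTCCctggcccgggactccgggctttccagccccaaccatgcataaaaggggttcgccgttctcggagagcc
The run begins 91 bases before the start in CXCL8, 78 in CXCL1 and 77 in CXCL2. It was in 8 of the 21 chemokine and cytokine promoters in the table and in 117 of 27305 promoters of all genes (0.428%). The 8 were CXCL1, CXCL2, CXCL3, CXCL5, CXCL6, CXCL8, CXCL10 and CXCL11, which are neighbours or near relatives on chromosome 4, so they are not independent. Of these 8 genes, 6 were lower by over 2, with a median difference of -2.85, and of the 13 without the run 3 were lower and 3 higher, with a median of 0.01. The 8 list members not matched in the promoter table are outside this split, among them CCL2 and CSF3, both lower by over 2. A match is a description of the sequence and not a bound site.

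**Figure D2:**
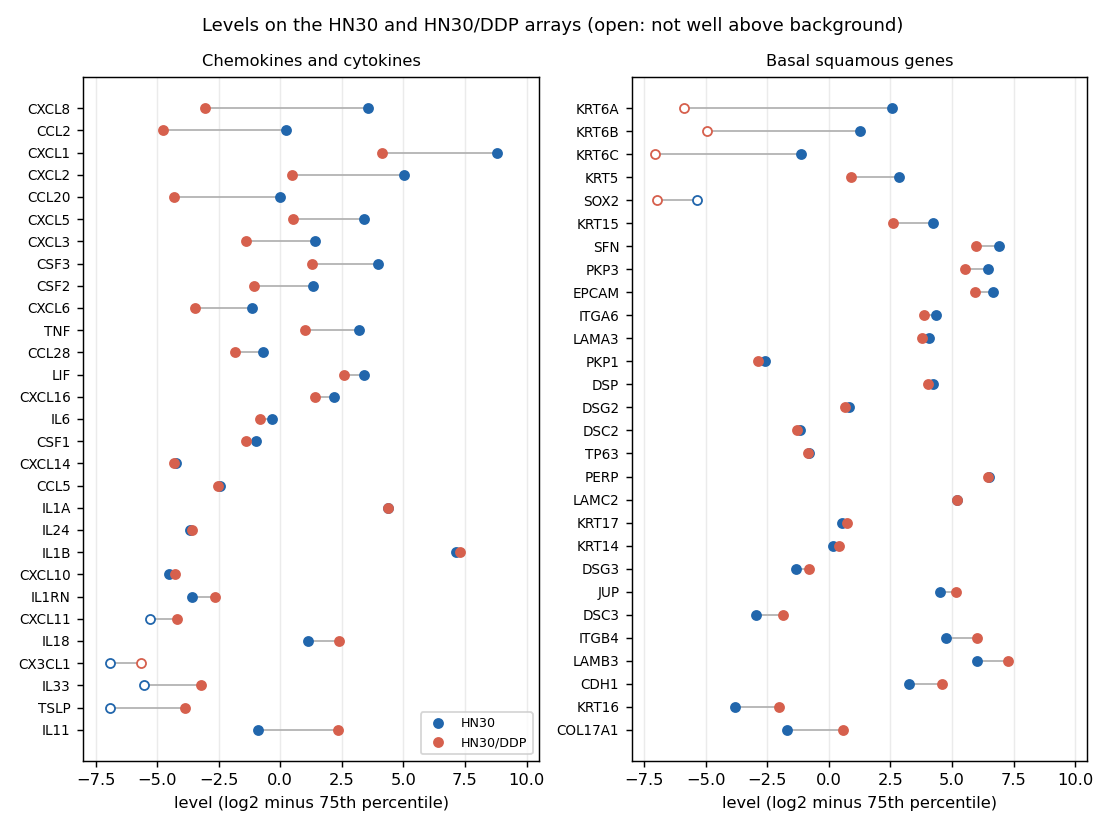
Each row is 1 gene, with its level (log2 signal minus the 75th percentile of the array) on HN30 in blue and on HN30/DDP in red, open where the probe was not well above background. The left panel shows 29 chemokine and cytokine genes, from CXCL8 (-6.63) to IL11 (3.22), and the right panel 28 basal squamous genes, where KRT6A, KRT6B and KRT6C stand apart from the rest.

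The feedback and immediate early genes of the same pathways did not follow the chemokines as a group. Of 25 genes, 4 were higher and 1 lower by over 2, against 5.48% and 1.80% of all genes, with a median of 0.51 and 0.69 relative to the curve. TNFAIP3, the deubiquitinase A20 that shuts NF-kB off, read 1.44 and -0.83, a difference of -2.27, and NFKBIA, the inhibitor IkB-alpha, differed by -0.84. ATF3, a stress-induced repressor, read 1.69 and 3.79 (2.10), although its probes ran from 0.01 to 2.10. FOSB differed by 2.37, and EGR2 and EGR3, at background on HN30, read -3.46 and -4.30 on HN30/DDP, at least 2.25- and 1.26-fold higher. FOS, JUN and JUNB differed by 0.67, 0.12 and 0.51, all under 1.

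The genes that make and package DNA were lower in HN30/DDP without exception among the lists' measured members. All 40 DNA replication genes had differences below 0, 37 of them by over 1 and 21 by over 2, with a median of -2.03 and of -1.63 relative to the curve. All 33 clustered histone genes measured were lower by over 1, 27 by over 2, with a median of -2.64 (-2.28 relative to the curve). All 35 mitotic genes were below 0, 33 by over 1 and 8 by over 2, with a median of -1.72 (-1.32), and relative to the curve 27 were lower by over 1 and 0 by over 2. In all genes 8.67% were lower by over 1, and in the brightest of the 5 bins 22.4%. In the HN4 pair the same medians were -0.48 for replication, -1.16 for histones and -0.44 for mitosis.

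Within replication RRM2 had the largest difference. RRM2, the regulated subunit of ribonucleotide reductase, read 3.33 on HN30 and -0.41 on HN30/DDP, a difference of -3.74. GINS2 and CDC45, parts of the replicative helicase, differed by -3.31 and -3.02. The polymerase subunits POLE2 and POLA2 differed by -3.16 and -2.80, and the helicase subunits MCM2 to MCM7 by between -2.78 (MCM4) and -1.89 (MCM3). E2F1 read 2.38 and -0.58, and its targets CCNE2 and CCNA2, cyclins of S phase, differed by -2.92 and -2.86. PCNA, the sliding clamp, stood at 6.81 and 4.27. TYMS, which makes thymidylate, differed by -2.40. The smallest differences in the list were those of CDT1 (-0.77) and CCNE1 (-0.81).

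Among the listed histone genes, whose messages are made in S phase, differences spanned from -4.12 in HIST1H3F to -1.10 in HIST1H3A, and HIST1H2AL, outside the list, stood at -4.22. HIST1H3B read 6.08 and 2.19, HIST1H1B, a linker histone, 3.81 and -0.22, and HIST2H3A of the smaller chromosome 1 cluster 7.26 and 3.82. The coding sequences of histone paralogs are near-identical, so signal may be shared between them and single members are uncertain. In mitosis, AURKA, a spindle kinase, had the largest difference (-2.25), and CDC20, which activates the anaphase-promoting complex, read 3.36 and 1.22, a difference of -2.15. PLK1, the mitotic kinase, differed by -2.12, MKI67, the proliferation marker, by -1.64, and CCNB2 and PTTG1 by -1.23 and -0.89.

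Promoters of these groups are shown with the letters their known regulators read: the CCAAT box of the factor NF-Y, the CHR element TTTGAA bound by the DREAM and MuvB complexes at mitotic genes, and the core TTCCCGC bound by E2F. All were searched on both strands in the 250 bases before the start on GRCh38.p14, and capitals mark the matches to the elements named for each gene. CDC20 (chr1:43358731-43358980, plus strand) and PLK1 (chr16:23678639-23678888, plus strand) are marked for CCAAT and CHR, RRM2 (chr2:10122489-10122738, plus strand) and H3C2, the current symbol of HIST1H3B (chr6:26032100-26032349, minus strand), for CCAAT, and GINS2 (chr16:85688955-85689204, minus strand) for the E2F core. Matches to other elements are left in lower case.
CDC20: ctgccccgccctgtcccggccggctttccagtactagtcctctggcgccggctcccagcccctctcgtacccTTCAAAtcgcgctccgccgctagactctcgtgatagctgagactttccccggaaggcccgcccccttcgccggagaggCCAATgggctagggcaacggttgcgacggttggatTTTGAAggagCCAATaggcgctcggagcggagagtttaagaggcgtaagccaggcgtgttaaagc
PLK1: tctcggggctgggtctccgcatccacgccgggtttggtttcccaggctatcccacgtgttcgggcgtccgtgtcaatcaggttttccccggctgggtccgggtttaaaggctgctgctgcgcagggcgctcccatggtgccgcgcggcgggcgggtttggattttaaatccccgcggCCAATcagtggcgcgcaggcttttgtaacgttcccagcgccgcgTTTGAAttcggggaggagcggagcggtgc
RRM2: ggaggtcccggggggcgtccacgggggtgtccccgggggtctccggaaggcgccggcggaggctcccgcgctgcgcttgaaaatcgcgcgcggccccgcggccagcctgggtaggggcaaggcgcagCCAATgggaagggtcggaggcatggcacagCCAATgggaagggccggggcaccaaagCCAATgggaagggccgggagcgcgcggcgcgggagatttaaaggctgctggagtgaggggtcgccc
H3C2: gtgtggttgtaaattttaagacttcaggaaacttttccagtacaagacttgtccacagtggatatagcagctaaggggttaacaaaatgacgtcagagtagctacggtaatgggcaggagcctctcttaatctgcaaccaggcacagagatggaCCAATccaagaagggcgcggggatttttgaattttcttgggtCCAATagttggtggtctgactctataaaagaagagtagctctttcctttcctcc
GINS2: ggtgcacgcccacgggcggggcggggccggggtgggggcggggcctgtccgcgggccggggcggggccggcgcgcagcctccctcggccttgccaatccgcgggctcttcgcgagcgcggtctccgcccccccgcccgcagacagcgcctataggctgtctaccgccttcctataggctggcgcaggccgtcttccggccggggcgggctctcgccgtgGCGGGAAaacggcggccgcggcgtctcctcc
A CCAAT box was in 22 of 29 mitotic promoters (75.9%) and 28 of 31 histone promoters (90.3%), against 33.0% of all 27305 promoters. The CHR element was in 16 of the 29 mitotic promoters (55.2%) against 13.6% of all. The E2F core was in 14 of 36 replication promoters (38.9%) against 5.59% of all, and in 1 of 31 histone promoters. Within the lists, mitotic genes with a CHR element had a median difference of -1.78 and those without -1.53. Replication genes with the E2F core had a median of -1.91, and those without it -2.03.

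Inhibitors that hold cells before S phase differed the other way in CDKN1C and CDKN1A. CDKN1C (p57), a cyclin-dependent kinase inhibitor, read -0.45 on HN30 and 4.08 on HN30/DDP, a difference of 4.53 (2.71 in the HN4 pair). CDKN1A (p21), the inhibitor induced by p53, read -2.05 and 0.45, a difference of 2.50 (3.58 in the HN4 pair). CCND2, a D-type cyclin, was at background on HN30 and read -0.81 on HN30/DDP, at least 14.1-fold higher. CDKN2A and CDKN1B differed by -0.09 and 0.05. RBL1 (p107), CDK4 and CDK2 were lower, with differences of -2.65, -1.69 and -1.27.

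Targets of p53 were higher more often than all genes. Of 28 targets, all well above background on both arrays, 6 were higher by over 2 and 12 by over 1, against 5.48% and 12.9% of all genes, and 1 and 2 were lower. The median was 0.81, 1.00 relative to the curve and 1.30 in the HN4 pair. GDF15, a secreted stress hormone, read 4.02 on HN30 and 9.19 on HN30/DDP, a difference of 5.18 (3.72 in the HN4 pair). TP53INP1, which promotes p53-dependent death and autophagy, read -1.30 and 2.51 and had differences of 3.81 and 4.12 by its 2 probes. BTG2, an antiproliferative gene, differed by 2.48, ZMAT3, an RNA-binding target, by 2.25, and SPATA18, a regulator of mitochondrial quality, by 2.09. CDKN1A is the other member past 2. The ribonucleotide reductase subunit RRM2B, which p53 induces, differed by 1.95, against -3.74 for the S-phase subunit RRM2.

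Not all targets were higher. MDM2, the ubiquitin ligase that p53 induces against itself, read 3.52 and 3.45, and its 3 probes gave differences between -0.07 and 0.32. BAX and FDXR differed by -0.57 and 0.18. TP53I3, which read 3.16 on HN30, and the death receptor FAS, which read 2.68, were lower, with differences of -2.06 and -1.44, while in the HN4 pair they differed by 1.49 and 0.64. The DNA-damage sensor DDB2 and the death receptor TNFRSF10B differed by 0.78 and 1.03.

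**Figure D3:**
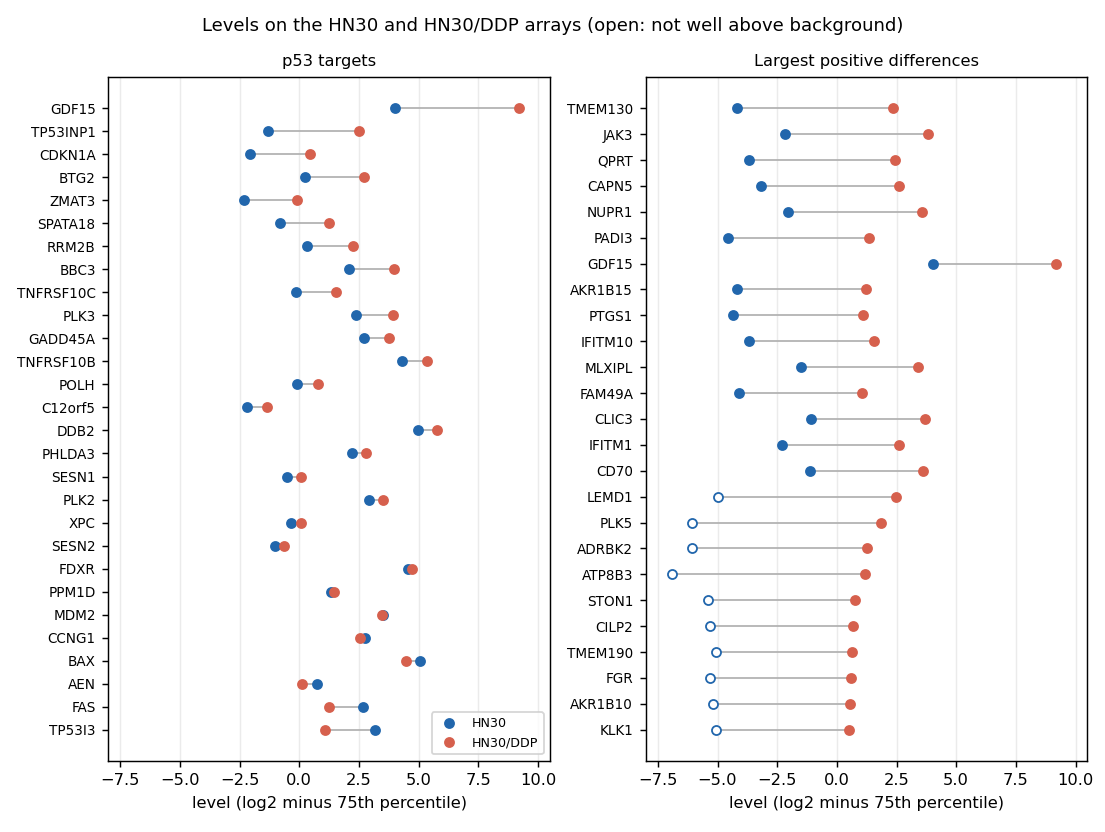
Each row is 1 gene, with its level (log2 signal minus the 75th percentile of the array) on HN30 in blue and on HN30/DDP in red, open where the probe was not well above background. The left panel shows 28 p53 targets from GDF15 (5.18) to TP53I3 (-2.06), and the right panel the 15 largest differences above the curve where both arrays were well above background, followed by 10 genes that were not well above background on HN30.

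Among 29 apoptosis regulators 5 were higher and 6 lower by over 1 (17.2% and 20.7%, against 12.9% and 8.67% of all genes), and 5 and 3 relative to the curve. In the brightest bin 7.78% were higher and 22.4% lower by over 1. Of the pro-death BH3-only genes, BMF, BBC3 (PUMA), HRK and BCL2L11 (BIM) differed by 2.15, 1.89, 1.72 and 1.20 (another probe of BCL2L11 gave 0.09), while BIK, PMAIP1 (NOXA), BAD and BID differed by -1.13, -0.87, -0.77 and -0.52. CYCS, cytochrome c, read 6.50 and 4.34, a difference of -2.16, and the DNA break sensor PARP1 differed by -1.65 (its probes ran from -1.88 to -0.31). The antiapoptotic genes diverged: BCL2L1 (BCL-XL) differed by 1.01, MCL1 by -0.85 and BCL2 by -0.87. The list as a whole had 1 gene higher and 1 lower by over 2, and a median of -0.52, or -0.10 relative to the curve.

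Of 35 crosslink and recombination repair genes, 21 were lower by over 1 and 6 by over 2, against 8.67% and 1.80% of all genes, and 0 higher by over 1, with a median of -1.18 (-1.03 relative to the curve). In the second brightest and the brightest bin 12.4% and 22.4% were lower by over 1, and 2.66% and 3.45% by over 2. EXO1, a resection nuclease, read 2.37 and -0.18, and CHEK1, the kinase that ATR activates, 2.29 and -0.15. The Fanconi anaemia genes FANCA, FANCD2 and FANCI differed by -2.16, -1.65 and -1.46. BRCA1 and BRCA2, of homologous recombination, differed by -1.88 and -1.74. RAD51D differed by -2.19, with another probe at 0.12. XRCC3 and EME1 were the members with the highest differences, at 0.54 and 0.59.

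Of 22 nucleotide excision repair genes, the pathway that removes most platinum adducts, none passed 2 in either direction and 7 were lower by over 1 (31.8%, against 22.4% in the brightest bin), with a median of -0.55. Relative to the curve 3 were lower and 2 higher by over 1, with a median of -0.15. ERCC1, the nuclease subunit often studied in cisplatin resistance, read 3.18 and 3.18, a difference of 0.00, and its partner ERCC4 (XPF) differed by 0.75. CETN2, ERCC8 and GTF2H1 were the lowest, at -1.68, -1.34 and -1.29, and UVSSA the highest, at 0.93.

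Platinum transporters and thiol genes gave few large differences. Of 19 transport genes, 1 was higher by over 2 (5.26%, near the 5.48% of all genes) and 0 lower (1.80% of all genes). It was ATP7B, the copper pump that can carry platinum out, which read -1.32 on HN30 and 0.77 on HN30/DDP, a difference of 2.09. The copper importer SLC31A1 (CTR1) differed by -0.25 and the copper pump ATP7A by 0.83. Of the efflux pumps, ABCC2 read -3.94 and -2.21, a difference of 1.73 (6.47 in the HN4 pair), while its other probe gave 0.26. ABCG2 differed by -1.60 and ABCC4 by -1.01. Of 12 metallothionein genes, of which 3 were at background on both arrays, 4 were lower by over 1 and none higher, against 22.4% lower in the brightest bin. Relative to the curve 0 were lower and 1 higher by over 1, and the median went from -0.41 to -0.08. MT2A, which binds zinc and copper, read 9.32 and 8.81.

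The targets of NRF2, the factor of the oxidative stress response, were close to all genes in the calls past 2. Of 27 genes, 2 were higher by over 2 (7.41%, against 5.48% of all genes) and none lower, with a median of 0.04 (0.27 relative to the curve). By over 1, 5 were higher and 2 lower, against 12.9% and 8.67% of all genes. Relative to the curve 8 were higher and 1 lower by over 1, against 5432 and 3182 of all 43305 genes. AKR1B10, an aldo-keto reductase, was at background on HN30 and read 0.56 on HN30/DDP, at least 36.5-fold higher by the lowest signal that counts as above background. Its relative AKR1B15 read -4.19 and 1.24 (5.43). The longest run of letters shared by their probes was 6 of 60, but signal shared between the transcripts was not tested. AKR1C3 differed by 3.63 and AKR1C1 by 1.87, with -0.10 and 2.92 as the extremes of its probes. NQO1, a classic NRF2 target, read 0.75 and -1.05, a difference of -1.80. SLC7A11, GCLC and TXNRD1, which supply glutathione and thioredoxin, differed by -0.11, 0.01 and 0.04. In the HN4 pair, AKR1C1, AKR1C3 and AKR1B10 differed by 6.96, 6.13 and 5.58.

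All 30 proteasome genes had differences below 0 and below the curve. By over 1, 24 were lower than 0 and 11 lower than the curve. In the brightest bin 22.4% were below -1, and 1050 of 8661 genes were lower by over 1 relative to the curve. The list median was -1.33 (-0.89 relative to the curve, and -0.13 without it in the HN4 pair). PSMC3, an ATPase of the regulatory particle, read 4.14 and 1.93, and PSMD14, its deubiquitinase, 6.25 and 4.47. Of 19 heat shock genes, 8 were lower and 4 higher by over 1 (6 and 5 relative to the curve), with a median of -0.54 (-0.22). Without the curve these are 42.1% and 21.1%, against 8.67% and 12.9% of all genes and 22.4% and 7.78% in the brightest bin. HSPA8, the constitutive HSP70, read 6.88 and 4.13, a difference of -2.75, and the mitochondrial chaperones HSPE1 and HSPD1 differed by -1.81 and -1.50. The stress-inducible HSPA1A differed by -0.33, while the small heat shock proteins HSPB8 and CRYAB were higher by 1.57 and 1.58. Of 21 genes of the unfolded protein response, 7 were lower and 1 higher by over 1, against 22.4% lower in the brightest bin, and relative to the curve 2 were lower, with a median that went from -0.64 to -0.23. HSPA5 (BiP), the main chaperone of that response, read 3.40 and 2.17.

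The integrated stress response list held genes far apart. NUPR1, a small stress-induced chromatin protein, read -2.05 and 3.58, a difference of 5.63, and DDIT3 (CHOP), the death-linked factor, -1.19 and 0.84. ATF5, a factor of the same family as ATF4, was lower, from 0.12 to -2.92. ATF4 itself was level, at 7.76 and 7.76. Its amino acid genes varied: ASNS differed by 0.69, CBS by 1.16, PSAT1 by -1.10 and SLC7A5 by -1.29. Over 26 genes, 2 were higher and 1 lower by over 2 (7.69% and 3.85%, against 5.48% and 1.80% of all genes), with a median of 0.12 (0.42 relative to the curve). Among 22 autophagy and lysosome genes, WIPI1, which acts at forming autophagosomes, differed by 2.61 and ULK1, the initiating kinase, by 1.34, while the lysosomal enzyme GLA differed by -1.81.

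**Figure D4:**
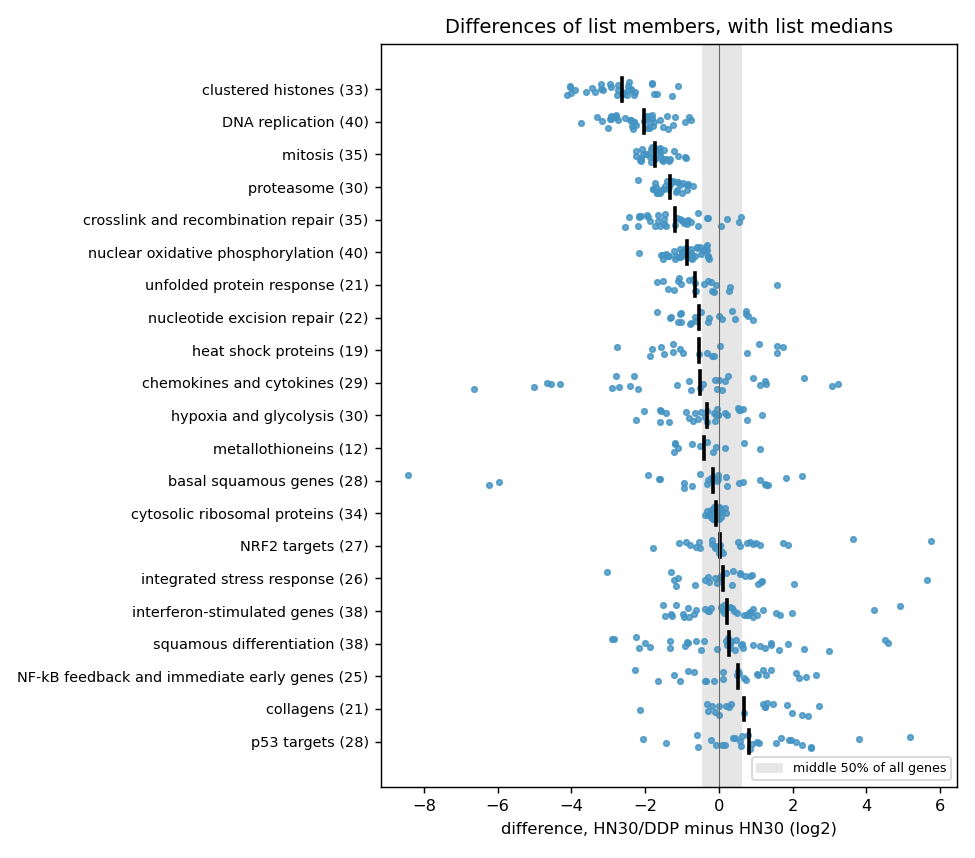
Each point is 1 gene of the list named at the left, with the number of measured genes in parentheses, at its difference (HN30/DDP minus HN30, log2). Black bars are list medians, from -2.64 for histones to 0.81 for p53 targets, and the grey band is the interquartile range of all genes.

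All 40 nuclear oxidative phosphorylation genes were below 0, 14 by over 1 and 1 by over 2, with a median of -0.88, against 22.4% lower by over 1 in the brightest bin. Relative to the curve, 32 of the 40 were below 0, 5 of them by over 1 and 0 by over 2, and the median was -0.44. ATP5G1, a subunit of ATP synthase, had the largest difference, from 5.14 to 2.98, and COX4I1, of cytochrome oxidase, the smallest, at -0.26. TOP1MT, the mitochondrial topoisomerase that the study followed, read 4.70 and 5.03, a difference of 0.33 and 0.82 relative to the curve, under the looser threshold. TFAM, which packages mitochondrial DNA, and TEFM, its elongation factor, differed by -1.82 and -1.72. The 19 mitochondrial biogenesis genes had a median of -0.41, and of -0.10 relative to the curve. PPARGC1A (PGC-1alpha), a coactivator of mitochondrial genes, was at background on HN30 and read -3.61 on HN30/DDP. Of 30 hypoxia and glycolysis genes, 7 were lower and 1 higher by over 1 (23.3% and 3.33%), with a median of -0.32. The shares were 8.67% and 12.9% in all genes and 22.4% and 7.78% in the brightest bin. Relative to the curve 15 lay above and 15 below it, with a median of 0.00. Among the glycolytic enzymes, LDHA and PGAM1 differed by -2.03 and -2.24, and ENO1, PGK1, TPI1 and PKM by -1.60, -1.59, -1.57 and -1.44. The glucose transporter SLC2A1 and the growth factor VEGFA, both induced by hypoxia, differed by 0.54 and 0.66. The 34 listed cytosolic ribosomal protein genes had no call in either direction, lay between -0.38 and 0.19, and had a median of -0.08, which turned to 0.26 relative to the curve.

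The 6 genes of the PI3K-AKT pathway that the study drew from these same arrays all had measured differences over 2, though 3 of them were at background on HN30 and the bounds of CREB5 and EGF are smaller. They were chosen on these samples, so this count is no independent evidence of their direction. JAK3, a cytokine receptor kinase, read -2.17 and 3.80, a difference of 5.98, and its other probe gave 1.55. CREB5, the transcription factor the study turned to, was at background on HN30 (-6.92) and read -3.61 on HN30/DDP, which gives at least 2.03-fold. EGF, a growth factor, was at background on HN30 and at least 3.10-fold higher, and NOS3, the endothelial nitric oxide synthase, read -1.75 and 0.43. The other members, CDKN1A and CCND2, are given with the inhibitors of G1. Of 20 CREB and ATF factors, 3 were higher (CREB5, CRTC1 and ATF3) and 1 lower (ATF5) by over 2 (15% and 5%). Of all genes 5.48% and 1.80% were called, and the list median was -0.15 (-0.04 relative to the curve). CREB5 counts here by its measured difference and not by its bound, and the probes of ATF3, given above, spread widely. CRTC1, a CREB coactivator, read -0.12 and 3.17, with probes at -0.20 and 3.29, so its probes disagreed. CREB1 and its coactivator CREBBP differed by -1.15 and -1.21.

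Growth factor receptors and WNT genes held some of the larger single differences. EGFR read 2.59 and 4.08, with probes between -0.12 and 1.49. ERBB4 was at background on HN30 and read -2.53 by its brighter probe, at least 4.27-fold higher, while another probe gave -0.32. EREG and NRG1, ligands of the family, differed by -1.51 and -1.43. Of 31 WNT genes, 3 were higher and 1 lower by over 2 (9.68% and 3.23%, against 5.48% and 1.80% of all genes), with a median of 0.29 (0.47 relative to the curve). WNT4 read -3.48 and 1.51, a difference of 4.98, but its other probe gave -0.52. WNT5A, a ligand of the noncanonical branch, read -1.50 and 1.23, and DKK3 -0.89 and 2.02. DKK1, a secreted inhibitor of the canonical branch, was lower, from 3.77 to 0.50, and differed by -4.69 in the HN4 pair.

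The type II keratins of stressed squamous epithelium were bright or moderate on HN30 and at background on HN30/DDP. KRT6A read 2.57 on HN30 and was not well above background on HN30/DDP, at least 183-fold lower. KRT6B read 1.26 and was at least 73.8-fold lower, and KRT6C read -1.11 and was at least 14.2-fold lower. Their probes on chromosome 12 share at most 6 letters in a row, but the transcripts are close paralogs and shared signal was not tested. KRT16 and KRT17, type I keratins that pair with them, stood at 1.81 (another probe at -0.75) and 0.19. In the HN4 pair KRT6A and KRT6C were higher in the resistant cells, with measured differences of 3.32 and 2.02 (KRT6C was at background on HN4), and KRT6B stood at -0.35. In the HN30 pair the 28 basal squamous genes had a median of -0.16 (0.06 relative to the curve). Of the 28, 3 were lower by over 2 (KRT6A, KRT6B and KRT6C), against 1.80% of all genes. COL17A1, a hemidesmosome collagen, was the 1 higher by over 2 (2.26), against 5.48% of all genes. The hemidesmosome genes ITGB4 and LAMB3 and the adherens junction gene CDH1 differed by 1.26, 1.28 and 1.34.

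Of 38 squamous differentiation genes, 4 were higher and 4 lower by over 2, against 5.48% and 1.80% of all genes, with a median of 0.28 (0.13 relative to the curve). The 4 higher were kallikreins, the serine proteases that loosen the stratum corneum: KLK8 read -0.88 and 3.64 (4.52), KLK7 was at background on HN30 and read -0.33, KLK5 read -4.31 and -2.01, and KLK11 went from background to -3.66. KLK13 differed by -1.99, with another probe at 0.22. KLK1, the tissue kallikrein of the same chromosome 19 cluster, was also at background on HN30 and at least 35.4-fold higher. The 4 lower were the cornified envelope genes SPRR2A (-2.90) and SPRR1B (at background on HN30/DDP, at least 4.38-fold lower) and the calcium-binding S100A7 (-2.85) and S100A8 (-2.25). S100A9, the partner of S100A8, was level at 4.34 and 4.54. PADI3, which deiminates hair and skin proteins, read -4.56 and 1.35, one of the largest differences of all (5.91).

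Among the genes with the largest differences below the curve or the largest bounds were 3 serine protease inhibitors of the SERPINB family on chromosome 18, whose other members were not tallied. SERPINB8 read 0.23 and -4.09, a difference of -4.32. SERPINB7 and SERPINB3 read -1.14 and -1.61 on HN30 and were not well above background on HN30/DDP, at least 13.9-fold and 9.49-fold lower. SERPINB5 (maspin), chosen for comparison after its value was seen, differed by -0.62. In simple and secretory epithelium, PIGR, the receptor that exports immunoglobulin A, read -4.39 and -0.81, CLDN3 -0.54 and 2.46, and AGR2, a disulfide isomerase of mucus cells, -3.03 and -0.64. MUC20, MUC16 and KRT23 were at background on HN30 and read -2.06, -4.82 and -3.75. The bounds were at least 5.94-fold for MUC20 and 1.84-fold for KRT23, and MUC16, below the HN30 limit of -4.63, allowed none. The dimmer probes of MUC16 and KRT23 differed by 0.94 and 0.47. By measured differences 6 of the 24 genes of this list were higher and 1 lower by over 2, against 5.48% and 1.80% of all genes, but MUC16 and KRT23 do not pass by their bounds. The lower one was ESRP2, a splicing factor of epithelia (-2.08).

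Of 21 collagen genes, 10 were higher by over 1 and 3 by over 2, against 12.9% and 5.48% of all genes, and 1 was lower, with a median of 0.67 (0.84 relative to the curve, and -0.33 without it in the HN4 pair). The median was 1.25 over members well above background on both arrays. COL6A1, a chain of the microfibrillar type VI collagen, read 0.98 and 3.69, and its partner COL6A2 -3.79 and -1.80. COL1A1 and COL17A1, given above, were the other members higher by over 2. COL12A1 was lower, from 3.96 to 1.82. MMP1, interstitial collagenase, read -2.21 and -4.68, and MMP3 and MMP7 read -4.02 and -3.21 on HN30 and were at background on HN30/DDP. The membrane-bound MMP14 and the inhibitors TIMP2 and TIMP3 differed by 1.34, 1.37 and 1.56. Mesenchymal genes went both ways: TAGLN and CDH2 were lower, with differences of -2.84 and -2.27, ACTA2 higher by 2.11, VIM differed by 0.95, and ZEB1, TWIST2 and POSTN were at background on both arrays.

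Of 38 interferon-stimulated genes, 2 were higher by over 2 (5.26%, against 5.48% of all genes) and none lower, with a median of 0.22 (0.55 relative to the curve). IFITM1, a membrane protein that restricts viral entry, read -2.31 and 2.59, with differences of 4.69 and 4.91 by its 2 probes. IFI44L was at background on HN30 and read -0.53. Others of the list were lower, among them the RNA sensor DDX58 (RIG-I, -1.47) and OAS3 (-1.31), and ISG15 and IFIT1 were level at 0.07 and 0.14. Of 17 antigen presentation genes none passed 2, HLA-F differed by 1.16 and the peptide transporter TAP2 by -1.62. The ISRE core, the motif of interferon-regulated factors, was in 17 of 30 promoters of the interferon list (56.7%) against 3.07% of all. Members with it had a median difference of 0.31 and those without 0.49.

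Most of the 15 largest differences above the curve, among messenger genes well above background on both arrays, lay outside these lists. TMEM130, a membrane protein, read -4.18 on HN30 and 2.36 on HN30/DDP, a difference of 6.54. Several were close to the background limit on HN30, where the lowest signal well above background was -4.63. QPRT, an enzyme of NAD synthesis, read -3.70 and 2.44, and CAPN5, a calcium-dependent protease, -3.18 and 2.60. PTGS1 (cyclooxygenase 1) read -4.35 and 1.09, and MLXIPL (ChREBP), the glucose-sensing factor, -1.51 and 3.41. CLIC3, an intracellular chloride channel protein, differed by 4.77, and FAM49A (CYRIA), which restrains RAC1, by 5.19. IFITM10, a family member outside the interferon list, read -3.66 and 1.54. CD70, the ligand of CD27, read -1.14 and 3.59, a difference of 4.73, against -1.37 in the HN4 pair.

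Among genes at background on HN30, LEMD1, a cancer-testis gene, read 2.49 on HN30/DDP, at least 139-fold higher. PLK5, a polo-like kinase, and ADRBK2 (GRK3), a kinase of G protein-coupled receptors, were at least 89.9-fold and 59.4-fold higher. ATP8B3, STON1, CILP2, TMEM190 and the SRC-family kinase FGR were at least 56.6-, 41.8-, 39.6-, 38.0- and 37.4-fold higher, and the other probes of ATP8B3 (-0.18) and STON1 (0.11) showed no such difference. PAGE2, a cancer-testis gene, was at least 18.2-fold higher, while MAGEA4 and MAGEA1 of the same list differed by -1.02 and -1.30. Of the 17 cancer-testis genes measured, 6 were lower and 2 higher by over 1, against 8.67% and 12.9% of all genes, and relative to the curve 1 and 2, with a median of -0.88 (-0.60 relative to the curve).

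Below the curve, after the chemokines, stood SLC45A1, a sugar transporter (-0.29 and -4.54), NAV3, a microtubule-associated protein (-0.25 and -4.46, with another probe at -0.60) and CNTNAP2, a neuronal adhesion gene (-0.85 and -4.65). SFXN2, a mitochondrial carrier, and MTG1, a mitochondrial GTPase, both on chromosome 10, differed by -3.94 and -3.91. AJAP1, an adherens junction protein, had differences of -3.82 and -3.07 by its 2 probes. The probes of PLEKHG3 (-5.47 and 0.41) and TGM2 (-4.42 and 0.50) disagreed in direction, so neither gene can be placed. KCNK17, a potassium channel, EQTN, SPATA19, RPL27A (a ribosomal protein gene outside the list above, which has 1 probe) and ATP8A2 were not well above background on HN30/DDP and at least 47.0-, 25.4-, 14.4-, 13.9- and 9.65-fold lower by their brightest probes, while other probes of KCNK17 (-0.56) and ATP8A2 (-0.32) differed little. Of the 229 lower genes with more than 1 probe, 186 had every probe below 0, and of the 570 higher genes, 408 had every probe above 0.

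Transcripts without a RefSeq messenger accession had comparably large differences. LINC00087 read -4.19 and 2.31, although its 3 probes ran from -0.96 to 6.50, and UNC5B-AS1 -3.60 and 1.91. LOC100131262 read 4.63 and -2.60, a difference of -7.23, and LINC00704 1.86 and -3.55. SNORD86, a small nucleolar RNA, differed by -4.20. By class, 5.84% of 18227 messenger genes were higher by over 2 and 2.66% lower, against 7.01% and 1.13% of 4154 RefSeq noncoding genes and 4.86% and 1.18% of 20924 other transcripts. In the brightest bin alone, the shares higher were 1.78%, 3.81% and 1.30% and the shares lower 3.59%, 2.45% and 2.79%, in the same order, so the gap between classes changed with brightness.

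Genes that were lower also lay side by side. Among 28115 genes ordered along the chromosomes by their hg19 probe positions, windows of 15 genes were ranked by the median difference relative to the curve. The lowest window held histone genes (HIST1H2BL to HIST1H3J) at chr6:27680817-27858262, with a median of -2.59 and 14 of 15 genes lower by over 1. The second covered the CXC chemokine cluster from AFM to CXCL2 at chr4:74367576-75144102, with a median of -2.59 and 11 of 15 lower. The next were histone windows at chr6:26158474-26251897 (-2.51) and chr6:25999389-26156987 (-1.99). After them came chr1:153005304-153520057, the SPRR and S100 genes of the epidermal differentiation complex, with a median of -1.20 and 8 of 15 lower. It had a median difference of 1.49 in the HN4 pair. The 5 highest windows had medians between 1.57 and 1.67, and none of them was found again with windows of 25 genes, against 4 of the 5 lowest. The highest of them lay around HES1, a NOTCH target, at chr3:193723157-194014471 and held noncoding transcripts apart from 1 gene.

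**Figure D5:**
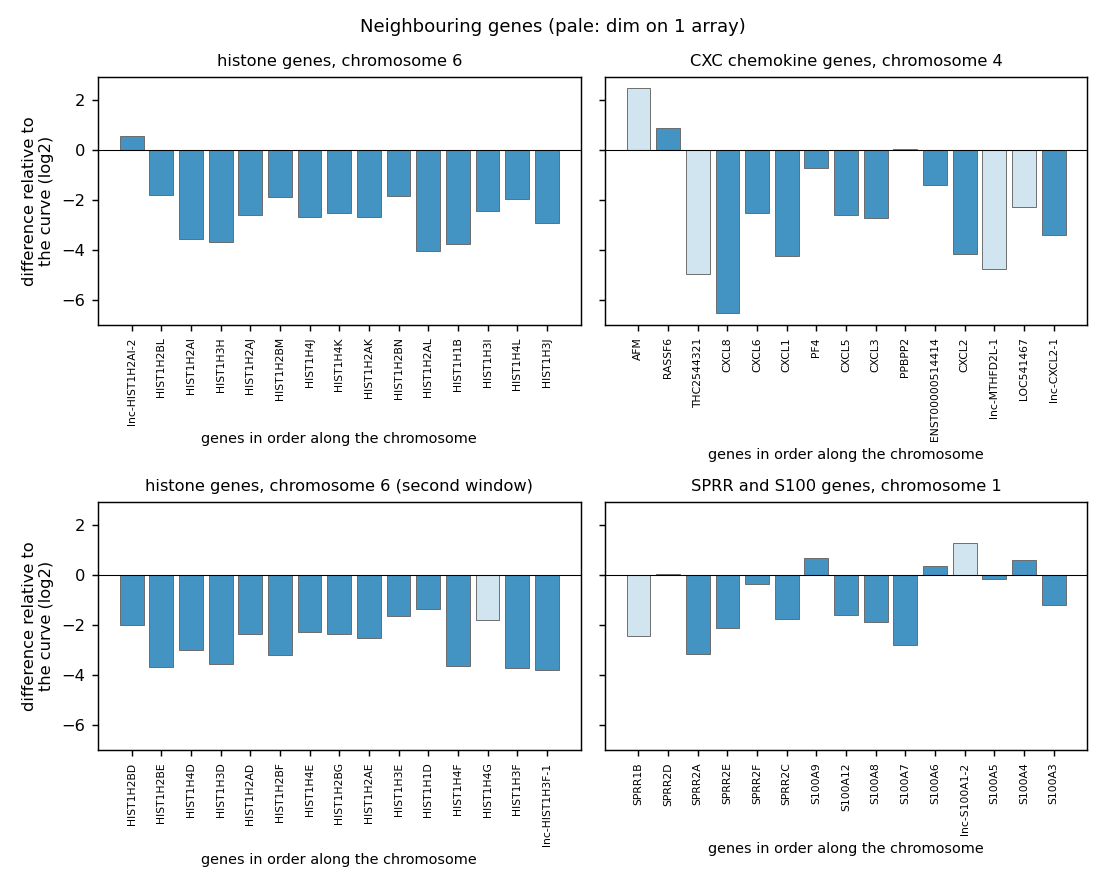
Bars are the differences relative to the curve (log2) of 15 neighbouring genes in chromosome order, blue where both arrays were well above background and pale where 1 was not. Bars point down across 14 of 15 genes in the first histone window, whereas the window of SPRR and S100 genes is mixed.

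Of 30 genes of cholesterol and fatty acid synthesis, 4 were higher and 2 lower by over 1, and 1 and 0 by over 2, close to the shares of all genes (12.9% and 8.67%, 5.48% and 1.80%), with a median of -0.08 (0.30 relative to the curve).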

How the data were processed

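The files hold the Feature Extraction output of 4 one-colour Agilent human arrays (design 072363), 1 per sample, of which HN30 and HN30/DDP are compared here. Per the file headers, Feature Extraction 10.7.1.1 made the processed signal, an intensity that is background-subtracted and spatially detrended within each array, with very low signals replaced by surrogates and no normalization between arrays. The authors also deposited a series table of log2 values of the same arrays, normalized by them, which was used as an alternative. No fold change of the authors was used.

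Control spots and outlier spots were dropped and repeat spots of 1 probe averaged. The log2 signal was scaled by subtracting the array's own 75th percentile. Each gene name was represented by its brightest probe, judged on the mean of all 4 arrays. The 75th percentile of the signal was 444 on HN30 and 480 on HN30/DDP, 55.3% and 63.6% of spots were well above background, and 0 were saturated. The curve was a lowess fit with a span of 0.2 (statsmodels 0.14.6). A bound on a fold sets the bright level against the higher of 2 signals on the dim array, the probe's own and the dimmest one that passes as well above background. Normexp correction used limma 3.58.1 in R 4.3.3 with an offset of 50. The curve fit and the threshold of 2 on the remainder were tried on simulated arrays, while probe choice, background flags and bounds were not. With 1 array in each group there is no replicate error and no test.

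The genes and the 39 lists were chosen with earlier results of these data known. Of 931 listed symbols, 922 matched a gene name, and the other 9 were not analysed here. The genes given by name are members of the lists, the 15 largest differences each way relative to the curve among messenger genes that passed background on both arrays, the 10 largest bounds each way, the 5 largest each way among other transcripts, and the genes of the windows. XIST and genes of chromosome Y were left out, and some list members are not reported here. Promoter sequences and symbols are from RefSeq (GRCh38.p14), and probe positions are those of the file headers (hg19).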

Additional observations from a re-analysis of the deposited data

Results flagged for a closer look

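In 9 named genes the measured difference passed 2 in opposite directions in the HN30 and HN4 pairs, with 1 array in each group, so no test of opposite behaviour in the 2 lines was possible. In the HN30 pair KRT6A, KRT6C, SPRR1B, SERPINB3 and SERPINB7 were at background on HN30/DDP and ADRBK2 on HN30, so their measured differences there are not sizes, and the bounds are at least 183-, 14.2-, 4.38-, 9.49-, 13.9- and 59.4-fold. In the HN4 pair KRT6C and SERPINB7 were at background on HN4 (-5.34 and -4.98), so their differences there are not sizes either and passing 2 is uncertain. Those lower in HN30/DDP and higher in HN4/DDP were epidermal genes. KRT6A had a measured difference of -8.44 in the HN30 pair and 3.32 in the HN4 pair, and KRT6C by -5.96 and 2.02. The cornified envelope genes SPRR1B and SPRR2A had measured differences of -2.17 and -2.90 in the HN30 pair and by 4.87 and 6.13 in the HN4 pair. S100A7 differed by -2.85 and 2.32, SERPINB3 by -3.25 and 2.07, and SERPINB7 by -4.06 and 2.59. The others were higher in HN30/DDP and lower in HN4/DDP: ADRBK2 (7.32 and -2.13) and WNT5A (2.73 and -2.79).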

How the results depend on the processing

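No paired analysis was possible because each group holds 1 array. Of the 968 genes given by name or in a list, 199 passed 2, and all 199 kept their direction under the 9 alternatives run on single genes, with between 147 (normexp) and 199 still past 2. The counts moved more. In place of 2371 higher and 779 lower, scaling to the median gave 1545 and 1532, normexp background correction 557 and 371, a threshold of 1 gave 5605 and 3756, and messenger genes alone 1064 and 485. The count of genes higher in HN30/DDP was 1085 with a pseudocount of 16, 1440 with dim signals set to the lowest signal well above background, and 1036 where both arrays had to be well above background. Under all other settings (lowess trend taken off, HN4 brightness, quantile scaling, the deposited values, mean of probes, outlier spots kept, no filter) the counts lay within 1.5 times the main ones. The number of lists with a median below -1 was 5, and 8 with median scaling. Among list medians over 0.5 in size, 1 turned its sign under any of 10 alternatives, that of the leukocyte markers, at 0.56 over all measured members and -0.25 over those well above background on both arrays. With windows of 25 genes, 0 of the 5 highest windows were found again. Signal over background limits what can be said of the 1335 higher genes at background on HN30 and the 213 lower genes at background on HN30/DDP, whose folds are bounds. A single array a side leaves culture, labelling and hybridisation differences inseparable from resistance.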
